A study of Mus musculus with 24 samples.

Results

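The genes described here are 48 genes of cell division, 16 that act in DNA replication and at entry into S phase and 32 that act in mitosis, out of 22911 genes named on the array. They were picked by name from the annotation of the probes, and each gene is represented by its brightest probe, taken as the mean of the 24 arrays. RNA of whole kidneys from male Crl:CD1(ICR) mice was hybridised to 24 arrays in 1 colour, with 1 array for each mouse. Sham mice (n = 6) received vehicle and normal feed. DKD mice (n = 9), named for diabetic kidney disease, received 90 mg/kg of alloxan, a toxin of insulin-producing cells, into a vein 3 days before the groups were formed, and normal feed. The enarodustat group (n = 9) received the same alloxan and feed with 0.01% (w/w) enarodustat, a drug that blocks the HIF prolyl hydroxylases and so stabilizes hypoxia-inducible factor. Both alloxan groups were matched on blood glucose and body weight, so alloxan is common to them, and kidneys were taken 16 days after grouping. No source used here gives the age of the mice. Alloxan can also act on kidney cells directly, and an effect of the toxin cannot be told apart from that of diabetes in these groups.

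Cells that enter the division cycle first switch on genes of DNA replication under E2F factors, and later, in G2 and mitosis, a second set under the B-MYB and FOXM1 complexes that bind the CHR element. Most cells of the adult kidney rest outside the cycle, and tubule cells can re-enter it when they are injured or when the organ grows, as it does early in diabetes. RNA of mitotic genes is therefore commonly read as a sign of dividing cells, while some replication genes are also made by cells under DNA damage. In RNA of a whole organ, a larger number of cycling cells and more RNA per cycling cell cannot be told apart.

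The promoters of the 2 classes differed in the letters they hold. Of the 48 genes, 41 matched a promoter in the RefSeq table of GRCm38.p6, which covers 250 bases before to 50 bases after the start of transcription, and the first listed start of each gene was searched on both strands. The CHR letters TTTGAA or TTCGAA occurred in 21 of 27 mitotic promoters (77.8%), in 2 of 14 S-phase promoters (14.3%) and in 19.4% of all 27025 promoters of the same length. The E2F letters TTCCCGC, or TTGGCGC, or TTCGCGC, or TTGCCGC, went the other way, with 8 of 14 S-phase promoters (57.1%), 5 of 27 mitotic promoters (18.5%) and 9.69% of all promoters. The CCAAT box, the site of NF-Y, occurred in 21 mitotic promoters (77.8%), 8 S-phase promoters (57.1%) and 37.9% of all. CHR and CCAAT stood together in 19 mitotic promoters (70.4%), 2 S-phase promoters (14.3%) and 7.70% of all. Across the matched genes, 4 pairs of matches of different motifs overlapped. A match describes the letters of this window and not a bound site.

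**Figure D1:**
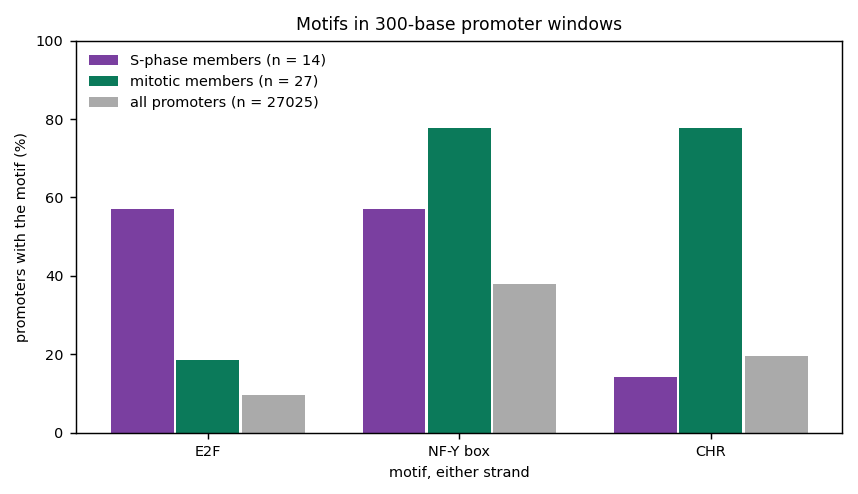
Share of promoter windows (vertical axis, percent) that hold each motif on either strand, for 14 S-phase genes, 27 mitotic genes and all 27025 promoters of the table; the NF-Y box is the CCAAT box. The CHR bar reaches 77.8% in mitotic genes against 14.3% in S-phase genes, and the E2F bar 57.1% in S-phase genes against 18.5% in mitotic genes.

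The 250 bases before the start are shown for the 2 S-phase and the 2 mitotic genes with the smallest adjusted p in DKD against sham, since these carry the rise described below; capitals mark the motifs, on either strand. Rrm2 (chr12:24708004-24708253, plus strand) holds 1 E2F match and 1 CCAAT box, and Mcm2 (chr6:88898781-88899030, minus strand) 1 CCAAT box and 1 CHR. Cdc20 (chr4:118437344-118437593, minus strand) has a CHR between 2 CCAAT boxes close to the start, and Melk (chr4:44300667-44300916, plus strand) holds none of these letters in this window.
Rrm2: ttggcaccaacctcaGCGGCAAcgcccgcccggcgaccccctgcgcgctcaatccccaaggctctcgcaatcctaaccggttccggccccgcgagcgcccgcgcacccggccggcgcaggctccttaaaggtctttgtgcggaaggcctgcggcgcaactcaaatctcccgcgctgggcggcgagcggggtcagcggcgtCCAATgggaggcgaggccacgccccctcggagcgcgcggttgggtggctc
Mcm2: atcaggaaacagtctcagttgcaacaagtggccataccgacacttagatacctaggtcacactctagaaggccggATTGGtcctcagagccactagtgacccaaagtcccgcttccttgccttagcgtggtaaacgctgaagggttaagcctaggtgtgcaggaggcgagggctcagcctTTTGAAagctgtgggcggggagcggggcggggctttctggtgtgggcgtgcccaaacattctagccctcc
Melk: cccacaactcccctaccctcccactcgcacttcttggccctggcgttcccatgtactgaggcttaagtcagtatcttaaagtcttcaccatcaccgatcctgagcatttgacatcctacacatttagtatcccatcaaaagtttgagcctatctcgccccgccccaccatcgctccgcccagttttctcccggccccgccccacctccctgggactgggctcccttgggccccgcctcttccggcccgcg
Cdc20: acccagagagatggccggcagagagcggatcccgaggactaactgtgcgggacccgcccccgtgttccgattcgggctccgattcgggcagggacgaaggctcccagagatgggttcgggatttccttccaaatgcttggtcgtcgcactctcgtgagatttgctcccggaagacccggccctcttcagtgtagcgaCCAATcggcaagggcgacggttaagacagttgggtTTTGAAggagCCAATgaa

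Levels are log2 signals after subtraction of each array's 75th percentile, so that 0 is that percentile itself, and changes are log2 differences ± SE from limma. The table of 24 arrays was fitted over 17736 genes with signal well above background on at least 6 arrays, and rise and fall are used of genes whose Benjamini-Hochberg adjusted p over all of these passed 0.05. Of the 48 genes, 43 were well above background on every sham array, 42 on every DKD array and 45 on every enarodustat array. The kinetochore kinase Bub1 was above background on 0 sham, 8 DKD and 9 enarodustat arrays. Its partner Bub1b was so on 0, 2 and 5 arrays, the checkpoint kinase Ttk on 0, 2 and 5, and the spindle motor Kif11 on 2, 6 and 9. Tpx2, which activates Aurora A on the spindle, was above background everywhere except on 1 DKD array. Ccne2, a second E-type cyclin, reached that level on no sham array, 1 DKD array and 1 enarodustat array, and was not tested, which left 15 S-phase and 32 mitotic genes.

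1 array stood apart. The library labelled DKD 3 had the lowest level of its group in 29 of 32 mitotic genes, and in 20 of them it lay below all 6 sham arrays. In S-phase genes it was the lowest of its group in 8 of 16, and lay above all sham arrays in 6 and below all of them in 5. The level of Grem1, an antagonist of BMP signalling picked after its values were seen because its groups lie far apart, was −1.67 in DKD 3, above the sham arrays (−5.05 to −3.68) and just below the other DKD arrays (−1.31 to 0.93). The mean of the fibroblast markers was 0.0072 in DKD 3, below the other DKD arrays (0.04 to 0.94) and the sham arrays (0.45 to 0.84). The part of these cells in its values was not tested. The 12 proximal tubule markers, whose mean level was 6.15 in DKD 3 and 5.74 to 6.18 on the other DKD arrays, were above background on all arrays, as were all 8 markers of the thick limb and distal tubule, 9 of principal cells and 8 of podocytes. Signals at the 75th percentile ranged from 187 to 388 over arrays, and 37716 to 44732 spots were well above background. The groups were spread evenly over 3 slides, which each carried 2 sham mice and 3 of either alloxan group. Position on the slide followed the group, since the upper row (row 1) took every sham mouse and row 2 every mouse on enarodustat; of the DKD mice, 6 were in row 1, and 3, with DKD 3 among them, in row 2.

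**Figure D2:**
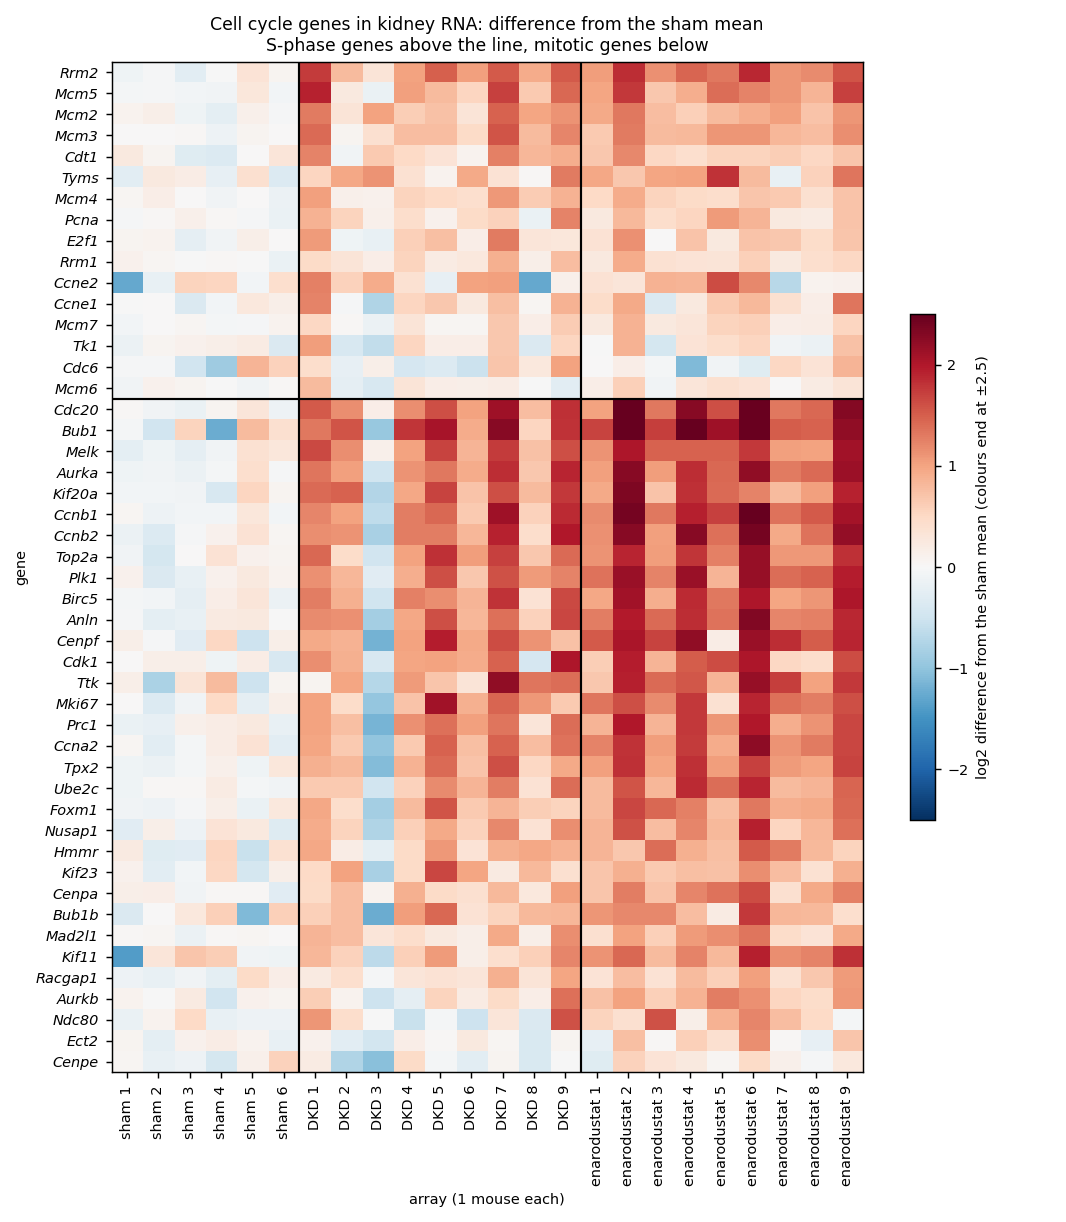
Colour gives the log2 difference of each gene (rows) from its sham mean on each of the 24 arrays (columns); S-phase genes are above the horizontal line and mitotic genes below, each ordered by the change in DKD. Most DKD and enarodustat columns are red in both blocks, while DKD 3 is blue in the mitotic block, where 28 of 32 genes lay below the sham mean.

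DKD was set against sham to ask which division genes differ in the diabetic kidney. Of the 47 genes tested, 21 rose, 0 fell and 26 did not pass, against 5.47% of all genes tested that rose and 6.13% that fell. The risers were 7 of 15 S-phase genes, led by the ribonucleotide reductase subunit Rrm2, and 14 of 32 mitotic genes, led by Cdc20, an activator of the anaphase-promoting complex. The median change was 0.47 over the 16 S-phase genes and 0.80 over the 32 mitotic genes, beside −0.01 over all genes tested. The groups did not overlap in 4 genes, Rrm1, Mcm2, Mcm3 and Mad2l1, where 1.48% of all genes had every DKD array above every sham array. Within slides 1, 2 and 3 the S-phase median was 0.38, 0.51 and 0.60 and the mitotic median 0.41, 0.95 and 1.01. Without DKD 3, 34 genes passed, 7 S-phase and 27 mitotic, with medians of 0.54 and 1.01, where 2027 of all 17736 genes changed. Without sham 3, 13 passed, 6 and 7, where 1471 of all genes changed.

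Genes that supply nucleotides rose in part. Rrm2, the subunit of ribonucleotide reductase made for S phase, had levels of −0.45, −0.21 and 0.15 in sham (lowest, median and highest) and of 0.13, 0.84 and 1.55 in DKD. It rose by 1.16 ± 0.18, 2.23-fold (adjusted p = 0.00024), with 8 of 9 DKD arrays above every sham array and DKD 3, at 0.13, within the sham range. The large subunit Rrm1, whose levels ran from −0.47 to −0.20 in sham and from −0.17 to 0.57 in DKD, rose by 0.43 ± 0.12 (adjusted p = 0.0184) with no overlap. The change of Tyms, which makes thymidylate, was 0.63 ± 0.24 (adjusted p = 0.0848), and that of the thymidine kinase Tk1 was 0.19 ± 0.23 (adjusted p = 0.668).

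The MCM helicase, a ring of 6 subunits loaded onto origins of replication, split into risers and others. Mcm2 had sham levels of −1.68, −1.40 and −1.28 and DKD levels of −1.11, −0.44 and 0.03, and rose by 0.88 ± 0.15 (1.84-fold, adjusted p = 0.000562). All 9 DKD arrays were above all 6 sham arrays. Mcm3 also rose without overlap, by 0.84 ± 0.17 (adjusted p = 0.00248), and Mcm4 rose by 0.59 ± 0.13 (adjusted p = 0.00405). Mcm5, at −1.74, −1.71 and −1.38 in sham and −1.83, −0.86 and 0.27 in DKD, rose by 0.91 ± 0.25 (adjusted p = 0.0186), with 7 DKD arrays above every sham array. In contrast to these 4 subunits, Mcm6 and Mcm7 did not pass, with changes of 0.08 ± 0.14 (adjusted p = 0.773) and 0.25 ± 0.13 (adjusted p = 0.211); the differences between subunits were not tested.

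The other genes of licensing and of the fork gave 1 further riser. Cdt1, which loads the MCM ring, rose by 0.64 ± 0.18 (adjusted p = 0.0213), a call that ended without sham 3 or sham 4 (adjusted p up to 0.0618). The sliding clamp Pcna had sham levels of 1.59, 1.77 and 1.89 and DKD levels of 1.60, 2.24 and 2.99, and its change of 0.47 ± 0.17 did not pass (adjusted p = 0.0718), with 6 of 9 DKD arrays above every sham array. Cdc6, Cdt1's partner in licensing, had a change of 0.11 ± 0.29 (adjusted p = 0.864) at its brightest probe, while its second probe, above background on 10 arrays, differed by 1.57. None of the G1/S switch genes passed. The cyclin Ccne1 had sham levels of −2.78, −2.42 and −2.16 and DKD levels of −3.18, −1.88 and −1.18 (change 0.40 ± 0.25, adjusted p = 0.342), and the transcription factor E2f1 −2.36, −2.10 and −1.99 against −2.33, −1.84 and −0.83 (change 0.46 ± 0.19, adjusted p = 0.132). In both, the lowest DKD array was DKD 3.

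Among the engines of mitotic entry, the B-type cyclins rose and CDK1 did not pass. Ccnb1, the cyclin that activates CDK1, had sham levels of −3.30, −3.24 and −2.89 and DKD levels of −3.81, −1.94 and −1.05, and rose by 1.06 ± 0.30 (2.08-fold, adjusted p = 0.0224). DKD 3 was below all sham arrays and the other 8 DKD arrays above all of them. Ccnb2 rose by 1.03 ± 0.33 (adjusted p = 0.0421), a call that ended when any 1 of 12 arrays was left out, the 6 sham arrays and DKD 1, 2, 4, 5, 7 and 9 (adjusted p up to 0.0965). Cdk1, the kinase that drives entry into mitosis, had sham levels of −5.07, −4.60 and −4.48 and DKD levels of −5.09, −3.68 and −2.65; its change of 0.85 ± 0.32 did not pass (adjusted p = 0.0889), with 7 DKD arrays above every sham array and DKD 3 and DKD 8 low. Ccna2, the A-type cyclin, changed by 0.79 ± 0.28 (adjusted p = 0.0638).

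Of the mitotic kinases and FOXM1, 3 of 4 rose. The spindle pole kinase Aurka, at −2.39, −2.32 and −1.83 in sham and −2.74, −1.12 and −0.33 in DKD, rose by 1.08 ± 0.28 (adjusted p = 0.0117). Polo-like kinase Plk1 rose by 0.97 ± 0.24 (adjusted p = 0.00933). Melk, a kinase of proliferating cells, had levels of −5.25, −5.11 and −4.64 in sham and −4.88, −3.85 and −3.26 in DKD and rose by 1.18 ± 0.22 (2.26-fold, adjusted p = 0.00127). In each of these 3 kinases, 8 of 9 DKD arrays were above every sham array. Foxm1, the transcription factor of the G2 genes, had a change of 0.62 ± 0.23 (adjusted p = 0.0834).

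The spindle checkpoint, which delays anaphase until chromosomes are attached, held 2 risers of 4. Bub1, with levels of −7.35, −5.94 and −5.32 in sham, where no array was above background, and −7.07, −4.54 and −3.85 in DKD, was higher in DKD by at least 1.74-fold (adjusted p = 0.034). The measured means were −6.11 ± 0.76 (SD, n = 6) and −4.85 ± 0.99 (SD, n = 9), and leaving out 1 of sham 1, 2 and 4 or of DKD 2, 4, 5, 7 and 9 ended the call, with an adjusted p of up to 0.107. Bub1 met the filter of 6 arrays through the alloxan groups alone, so its test against sham depends on that filter. Mad2l1, a direct inhibitor of CDC20, rose by 0.56 ± 0.17 without overlap (adjusted p = 0.0327), from −1.62 to −1.42 in sham and from −1.33 to −0.31 in DKD, a call that ended without any 1 of the 6 sham arrays or without DKD 1, 2, 7 or 9 (adjusted p up to 0.077). Bub1b (−7.52, −6.29 and −5.82 in sham; −7.67, −5.66 and −4.99 in DKD) and Ttk (−7.89, −6.99 and −6.31; −7.81, −6.11 and −4.87) did not pass (adjusted p = 0.274 and 0.127). Both checkpoint kinases had 0 sham arrays and 2 DKD arrays above background.

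Both genes of the anaphase-promoting complex rose. Cdc20 had sham levels of −1.42, −1.28 and −0.95 and DKD levels of −1.09, −0.08 and 0.87, and rose by 1.26 ± 0.27 (2.40-fold, adjusted p = 0.00294). DKD 3 lay within the sham range, and the other 8 DKD arrays were above it. The ubiquitin-conjugating enzyme Ube2c rose by 0.72 ± 0.23 (adjusted p = 0.0455), a call that ended without any 1 of the 6 sham arrays, DKD 1, 2, 5, 6, 7 or 9, or enarodustat 2 or 9 (adjusted p up to 0.0838).

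Genes of the centromere, spindle and cleavage furrow varied. In the passenger and kinetochore group, Birc5 (survivin) rose by 0.97 ± 0.27 (adjusted p = 0.0222, and 0.0542 without sham 3) and the centromeric histone Cenpa by 0.58 ± 0.16 (adjusted p = 0.0229, and up to 0.0561 without sham 3 or 6). The passenger kinase Aurkb, the kinetochore protein Ndc80, Cenpf and the motor Cenpe did not pass, with changes of 0.31, 0.21, 0.89 and −0.19. Of the spindle motors and microtubule binders, 1 of 7 rose, the cytokinesis motor Kif20a, by 1.07 ± 0.31 (adjusted p = 0.0244; up to 0.0623 without sham 2, 3 or 4). The other 6 (Kif11, Kif23, Nusap1, Tpx2, Prc1 and Hmmr) had changes between 0.53 and 0.80. The furrow scaffold Anln rose by 0.94 ± 0.27 (adjusted p = 0.0246; up to 0.0595 without sham 2 or 3), while Racgap1 and the exchange factor Ect2 had changes of 0.42 and −0.05.

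The usual markers of proliferation, Mki67 and Top2a, fell on either side of the threshold. Top2a, the topoisomerase that untangles replicated chromosomes, had sham levels of −3.24, −2.76 and −2.44 and DKD levels of −3.28, −1.74 and −0.97, and rose by 1.01 ± 0.27 (2.01-fold, adjusted p = 0.0162). Mki67, the gene of the Ki-67 coat of mitotic chromosomes, had levels of −1.77, −1.47 and −0.94 in sham and −2.41, −0.55 and 0.66 in DKD. Its change of 0.82 ± 0.30 did not pass (adjusted p = 0.0827), with 7 of 9 DKD arrays above every sham array and DKD 3 below all of them.

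**Figure D3:**
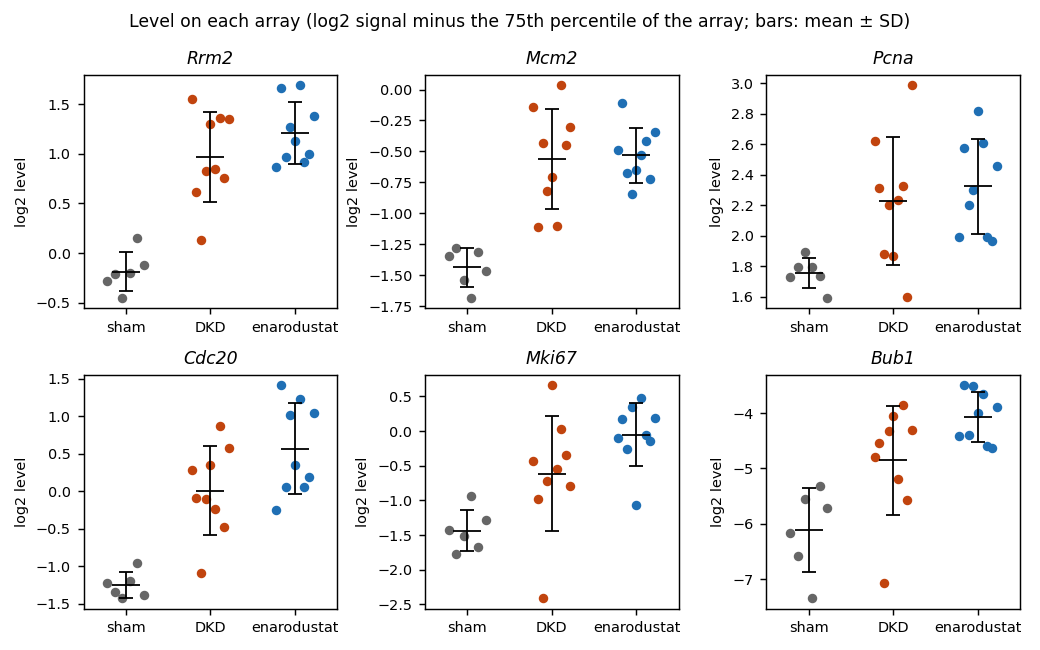
Points are the levels of 6 genes on each array, in log2 units relative to the 75th percentile of their array, with mean ± SD bars for sham (n = 6), DKD (n = 9) and enarodustat (n = 9). Mcm2 does not overlap between sham and DKD; in Cdc20, Mki67 and Bub1 the lowest DKD point is DKD 3, and in Pcna the lowest DKD point is DKD 8.

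Limits of this comparison lay in dim signal and scaling. With normexp background correction on the median signals and quantile normalization, which shrinks dim probes, 15 genes rose and the order of the classes turned, with medians of 0.41 for S phase and 0.25 for mitosis; Ccnb1, Ccnb2, Melk, Bub1, Kif20a, Mad2l1, Ube2c and Cenpa no longer passed (adjusted p = 0.0511 to 0.144). With the median of the array as scale, which moved the median of all genes by −0.10, 11 rose, and Cdt1, Rrm1, Birc5, Ccnb2, Mad2l1, Ube2c, Kif20a, Anln, Cenpa and Bub1 no longer passed (adjusted p = 0.0542 to 0.186). With the replicate number as a block, 14 rose. Normexp with the 75th percentile gave 9 S-phase and 10 mitotic risers, and Bub1 did not pass (change 0.10, adjusted p = 0.7). Other settings added calls. Pcna passed with both forms of normexp (adjusted p = 0.0173 with quantile normalization and 0.0449 with the 75th percentile), with the deposited values (0.0153) and with quantile normalization of the processed signals (0.0218). Tyms passed in the first 3 of these settings (adjusted p = 0.0311 to 0.048) and with the replicate block (0.0436). With the slide as a random block 23 rose, with Hmmr and Racgap1 added (adjusted p = 0.0493 and 0.0498), where 2315 of all 17736 genes changed. With the slide row as a term 29 rose, among them Mki67, Ccna2, Foxm1 and E2f1 (adjusted p = 0.0132 to 0.0322). The row term is estimated from the DKD mice alone, since row followed the group in the others. DKD 3, with a mitotic mean of −0.58, is among the 3 DKD mice in row 2, so this term cannot separate position from the low values of that array.

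Further lists hold division genes outside the 48, to be read beside the 5.47% of all genes tested that rose in DKD and the 6.13% that fell. Of 50 tested genes in a further list of mitotic genes, 22 rose and 0 fell (median 0.65), among them the kinesin Kif4, which was above background in no sham mouse and was higher by at least 1.84-fold (adjusted p = 0.0011), and the spindle protein Ckap2, which rose by 1.37 ± 0.29 (adjusted p = 0.00341). Of 39 further replication genes, 11 rose and 1 fell (median 0.23), with Uhrf1, which keeps DNA methylation at the fork, up by 1.33 ± 0.24 (adjusted p = 0.00067) and the polymerase subunit Pole by 1.02 ± 0.20 (adjusted p = 0.00148). Among 21 G1 cyclins, CDKs and E2F factors, 4 rose (median 0.10), including the kinase Cdk2 by 0.74 ± 0.15 (adjusted p = 0.00168) and cyclin D1, Ccnd1, by 0.66 ± 0.17 (adjusted p = 0.0106). With normexp and the 75th percentile, the calls of Kif4 (change 0.15, adjusted p = 0.3) and Cdk2 (0.18, 0.119) ended.

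Of 19 tested genes that stop the cycle, 5 rose, 0 fell and 14 did not pass (median 0.10), beside 5.47% of all genes tested that rose and 6.13% that fell. Cdkn1a, the CDK inhibitor p21, had sham levels of −2.47, −1.78 and −1.11 and DKD levels of −1.23, 0.10 and 0.47, and rose by 1.52 ± 0.29 (2.87-fold, adjusted p = 0.00143). A second, dimmer Cdkn1a probe, above background on 19 arrays, differed by −0.02, so the probes disagree. Cdkn1c (p57), at 2.37, 2.52 and 2.68 in sham and 2.93, 3.45 and 4.27 in DKD, rose by 0.95 ± 0.16 without overlap (adjusted p = 0.000436), and the INK4 inhibitor Cdkn2b by 1.23 ± 0.19 (adjusted p = 0.000161). Cdkn1b (p27), at 0.99, 1.15 and 1.43 against 0.76, 1.31 and 1.60, had a change of 0.10 ± 0.11 (adjusted p = 0.606).

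Targets of the DNA damage factor p53, with Cdkn1a counted here as well, rose in 9 of 19 cases, and 1 fell (median 0.41). For this and the marker lists below, 5.47% of all genes tested rose and 6.13% fell. Phlda3, a p53-induced inhibitor of AKT, rose by 1.70 ± 0.19 (adjusted p = 1.02e-05), and the receptor Eda2r, which no sham mouse had above background, was higher by at least 1.70-fold (adjusted p = 4.16e-05), a call that ended with normexp and the 75th percentile (change 0.18, adjusted p = 0.276). Eda2r also met the filter through the alloxan groups alone, so its test depends on that filter. Markers of injured tubules rose in 3 of 12 cases (Spp1, Krt18 and Vim), those of principal cells in 7 of 9, and those of lymphocytes fell in 6 of 14. Of the proximal tubule markers 4 of 12 fell and 1 rose, with means of 6.21 to 6.44 over sham arrays and 5.74 to 6.18 over DKD arrays, and of the erythroid markers 3 of 7 tested fell and 1 rose. The mean of the lymphocyte markers ranged from −2.65 to −2.13 over sham arrays and from −3.55 to −2.96 over DKD arrays. The part of these markers in the rise of division genes was not tested. In DKD 3 the p53 target mean was 0.70, within the range of the other DKD arrays (0.65 to 0.97) and above sham (0.12 to 0.42), while the mean of the further mitotic genes, −3.89, was below all sham arrays (−3.69 to −3.47).

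Enarodustat was set against DKD to ask whether the drug changed the division genes of diabetic kidneys. By limma, 0 of 47 genes tested passed, against 0.716% of all genes tested in either direction, 0.609% higher and 0.107% lower. At an unadjusted p under 0.05 there were 21, all mitotic, and 1937 among all genes tested. The change was above 0 in all 32 mitotic genes, from 0.18 to 0.79 with a median of 0.55, beside 51.1% of all genes tested above 0. Kif23 and Bub1b were below 0 with normexp and the 75th percentile, and 30 and 24 of 32 were above 0 within slides 2 and 3. The mitotic median was 0.23 with normexp and quantile normalization and 0.22 with normexp and the 75th percentile. It was 0.28 with the deposited values, which cover 27 of the mitotic genes. The median of the 16 S-phase genes was 0.10, from −0.08 to 0.27, beside 0.0048 over all genes. Without DKD 3, the medians were 0.36 and 0.05, with all 32 mitotic and 11 of 16 S-phase changes above 0. Within slides 1, 2 and 3 the mitotic median was 0.82, 0.65 and 0.12, and the S-phase median 0.19, 0.20 and −0.12. In every gene some arrays of the groups overlapped, where 0.135% of all genes had none.

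The largest mitotic differences in the main fit, up to 0.79, were those of Bub1 and Cenpf. Bub1 had levels of −7.07, −4.54 and −3.85 in DKD and −4.63, −4.00 and −3.50 with enarodustat (change 0.79 ± 0.34, adjusted p = 0.388), and Cenpf, a kinetochore protein of G2, a change of 0.79 ± 0.31 (adjusted p = 0.314). Bub1b had enarodustat levels of −6.22, −5.58 and −4.66 (change 0.35 ± 0.28, adjusted p = 0.754) and Ttk of −6.43, −5.54 and −4.92 (change 0.64 ± 0.30, adjusted p = 0.447). In these 3 kinases the lowest enarodustat array was above the lowest DKD array, and the groups overlapped. Their signals lay near background, and with normexp and the 75th percentile Bub1, Ttk and Bub1b changed by 0.0685, 0.015 and −0.0042. The change of Cenpf was 0.28 in that setting. The cyclin Ccnb1, at −1.98, −1.46 and −0.54 with enarodustat, had a change of 0.74 ± 0.27 (adjusted p = 0.27), and 9 of 9 arrays were above the DKD mean. For Mki67, at −1.06, −0.06 and 0.47, the change was 0.57 ± 0.27 (adjusted p = 0.45), for Top2a, at −1.76, −1.54 and −0.62, 0.47 ± 0.24 (adjusted p = 0.51), and for Cdk1, at −4.23, −3.15 and −2.65, 0.39 ± 0.29 (adjusted p = 0.708).

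Of the fits that left out 1 array, only that without DKD 9 gave a passing member, Aurkb, the kinase of the chromosomal passenger complex. It had levels of −4.83, −4.11 and −2.92 in DKD, the highest being DKD 9, and −3.85, −3.45 and −3.03 with enarodustat. Its change over all arrays was 0.55 ± 0.18 (adjusted p = 0.209), and the adjusted p without DKD 9 was 0.0338. All 9 enarodustat arrays were above the DKD mean. A second, dimmer Aurkb probe, above background on 16 arrays, differed by 0.25. Over all arrays, the limma change was 0.10 with normexp and quantile normalization (adjusted p = 0.437). It was 0.08 with normexp and the 75th percentile (adjusted p = 0.983).

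No S-phase gene passed by limma, adjusted or at an unadjusted p under 0.05. Rrm2, at 0.87, 1.13 and 1.69 with enarodustat, had a change of 0.24 (95% interval −0.10 to 0.58), and Mcm2, at −0.85, −0.53 and −0.11, one of 0.03 (−0.26 to 0.31). Mcm5, at −0.97, −0.56 and 0.12, had a change of 0.27 ± 0.22 (95% interval −0.19 to 0.73, adjusted p = 0.755) and Pcna, at 1.97, 2.30 and 2.82, one of 0.10 ± 0.15 (adjusted p = 0.916). Ccne1 (−2.79, −1.96 and −1.09) and E2f1 (−2.13, −1.46 and −0.99) had changes of 0.12 ± 0.22 and 0.10 ± 0.17 (adjusted p = 0.931 and 0.927). In each of these 6 genes the enarodustat arrays overlapped with the DKD arrays.

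Among the further division genes, 1 rose, where 0.609% of all genes tested rose. Pimreg, a mitotic partner of CALM in a list of 50 tested genes, rose by 1.19 ± 0.20 over DKD (adjusted p = 0.00345), and its change between DKD and sham did not pass (1.28-fold lower, adjusted p = 0.368). Its call ended with normexp and the 75th percentile (change 0.28, adjusted p = 0.143) and with the slide row as a term (change 0.88, adjusted p = 0.243). Of the other replication genes, G1 genes, brakes and p53 targets, 0 passed by limma, with 2, 3, 3 and 3 at an unadjusted p under 0.05 (Cdkn1a 0.60 ± 0.26, adjusted p = 0.393; Cdkn1b 0.16 ± 0.09, 0.593; Cdkn1c −0.27 ± 0.14, 0.528). Endothelial markers rose in 6 of 10 cases, beside 0.609% of all genes tested. Egfl7 rose by 0.44 ± 0.11 (adjusted p = 0.0484), a call that ended without any 1 of 19 arrays (adjusted p up to 0.101). Cdh5 rose by 0.43 ± 0.08 (adjusted p = 0.0103) and Emcn by 0.43 ± 0.09 (adjusted p = 0.0191). Both calls ended with the median of the array as scale (adjusted p = 0.086 for Cdh5 and 0.346 for Emcn) and with the slide row as a term (0.243 and 0.37), and that of Emcn also with the replicate block (0.0802) and with only the 2 groups compared (0.0682). Their mean ranged from 1.43 to 1.65 over DKD arrays and from 1.66 to 2.02 over enarodustat arrays. The part of endothelial cells in the mitotic values was not tested.

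**Figure D4:**
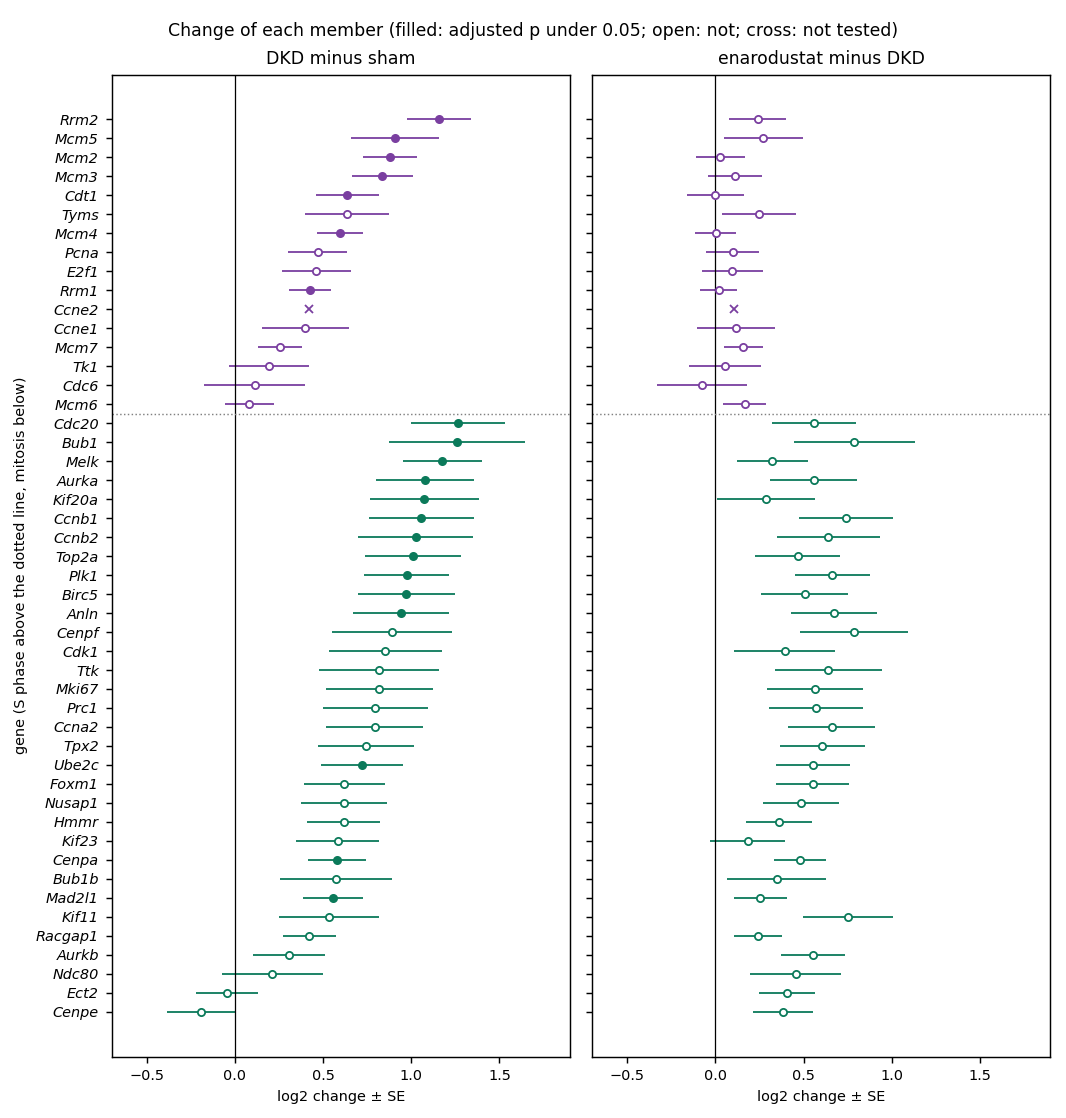
Points are the log2 change ± SE of each gene in DKD minus sham (left) and enarodustat minus DKD (right), with filled points where the adjusted p passed 0.05 and a cross for the gene not tested. On the left 21 points are filled; on the right none is, and the mitotic points lie between 0.18 and 0.79 while the S-phase points lie between −0.08 and 0.27.

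Enarodustat was also set against sham, a comparison that shares its sham arrays with the first and its enarodustat arrays with the second. Of the 47 genes, 39 rose and 0 fell, 10 of 15 S-phase and 29 of 32 mitotic genes, against 8.74% of all genes tested that rose and 6.75% that fell. The groups did not overlap in 32 genes, where 2.91% of all genes had every enarodustat array above every sham array. The medians were 0.56 for S phase and 1.36 for mitosis, beside −0.02 over all genes. With normexp and quantile normalization they were 0.43 and 0.48, with 36 genes called.

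The largest rises were in mitosis. Bub1, at −7.35 to −5.32 in sham and −4.63 to −3.50 with enarodustat, was at least 3.01-fold higher (adjusted p = 0.000912). Cdc20 rose by 1.82 ± 0.27 (3.53-fold, adjusted p = 9.15e-05), with levels of −0.26, 0.36 and 1.41 all above the sham arrays. Ccnb1 rose by 1.80 ± 0.30, Cenpf by 1.68 ± 0.34 and Ccnb2 by 1.67 ± 0.33 (adjusted p = 0.000313, 0.00187 and 0.00133). Mki67, Top2a and Cdk1 rose by 1.38 ± 0.30, 1.48 ± 0.27 and 1.25 ± 0.32 (adjusted p = 0.00319, 0.000751 and 0.0101). Enarodustat 5 lay within the sham range in Mki67 and in Cenpf; the other genes of these sentences had no overlap. Ttk was at least 1.04-fold and Bub1b at least 1.15-fold higher (adjusted p = 0.00513 and 0.0499), the latter a call that ended without any 1 of 18 arrays (adjusted p up to 0.149). Bub1, Ttk and Bub1b met the filter of 6 arrays through the alloxan groups alone, so their tests against sham depend on that filter. At a filter of 12 arrays Ttk and Bub1b were not tested, and 27 of 30 mitotic genes rose. The members that did not pass were Cenpe, Ect2 and Ndc80. With normexp and the 75th percentile, 10 S-phase and 21 mitotic genes rose. Bub1 (change 0.17, adjusted p = 0.329), Cdk1 (0.23, 0.269), Ttk (0.05, 0.801) and Bub1b (0.02, 0.934) no longer passed in that setting. Neither did Melk (0.24, 0.111), Kif11 (0.08, 0.675), Kif23 (0.14, 0.337) and Aurkb (0.11, 0.507). With the slide row as a term, Cdk1 no longer passed (1.25, 0.172), and Mki67 and Cenpf rose by 2.33 and 2.77. That term is estimated from the DKD mice alone, with DKD 3 among those in row 2.

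In S phase, Rrm2 rose by 1.39 ± 0.18 (2.63-fold, adjusted p = 2.67e-05), Mcm5 by 1.18 ± 0.25, Mcm3 by 0.95 ± 0.17, Mcm2 by 0.91 ± 0.15 and Tyms by 0.88 ± 0.24 (adjusted p = 0.00241, 0.00071, 0.000346 and 0.0129). Pcna rose by 0.57 ± 0.17 (adjusted p = 0.0234). These genes, apart from Tyms on 1 array, had every enarodustat array above every sham array. E2f1 (0.56 ± 0.19, adjusted p = 0.0524), Ccne1 (0.52 ± 0.25, adjusted p = 0.163), Tk1, Mcm6 and Cdc6 did not pass, while E2f1 passed with the slide as a random block (adjusted p = 0.0459). The calls of Pcna and Tyms ended with the median of the array as scale (adjusted p = 0.14 and 0.0693) and with the slide row as a term, where their changes were 0.36 (0.436) and 0.16 (0.81). Among the brakes, 7 of 19 rose, with Cdkn1a up by 2.12 ± 0.29 (adjusted p = 5.03e-05), Cdkn1c by 0.68 ± 0.16 (adjusted p = 0.00547) and the CDK1-inhibiting kinase Pkmyt1 by 1.11 ± 0.18 (adjusted p = 0.000305), while Cdkn1b had a change of 0.26 ± 0.11 (adjusted p = 0.0954). The second, dimmer Cdkn1a probe differed by −0.02 between DKD and sham and by 0.23 between enarodustat and DKD, so the probes disagree here too. Cdkn1a is also counted among the p53 targets below. With the slide row as a term, Cdkn1a (change 1.29, adjusted p = 0.0923), Cdkn1c (0.28, 0.503) and, of the G1 genes named next, Myc (1.22, 0.172) did not pass, and Cdkn1c also missed with the median of the array as scale (0.0574). The further lists gave 38 risers of 50 mitotic genes, 16 of 39 replication genes, 12 of 19 p53 targets and 4 of 21 G1 genes, among them Myc by 1.22 ± 0.32 (adjusted p = 0.0105). Over all genes tested, 8.74% rose in this comparison.

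Both classes can be set side by side within each mouse as the mean difference of their genes from the sham mean. The S-phase mean was 0.53 ± 0.35 (SD, n = 9) in DKD, from 0.17 to 1.05, and 0.63 ± 0.22 (SD, n = 9) with enarodustat, from 0.40 to 0.98. The mitotic mean was 0.74 ± 0.57 in DKD, from −0.58 to 1.26, and 1.25 ± 0.35 with enarodustat, from 0.89 to 1.80. The mitotic mean exceeded the S-phase mean in 4 of 6 sham mice, 7 of 9 DKD mice and 9 of 9 enarodustat mice. In sham, both class means average 0 by construction. The exceptions in DKD were DKD 1 (1.05 in S phase and 0.93 in mitosis) and DKD 3 (0.17 and −0.58). As the genes were chosen with results known, these means carry no test, and with normexp the order of the medians in DKD turns, as given above.

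**Figure D5:**
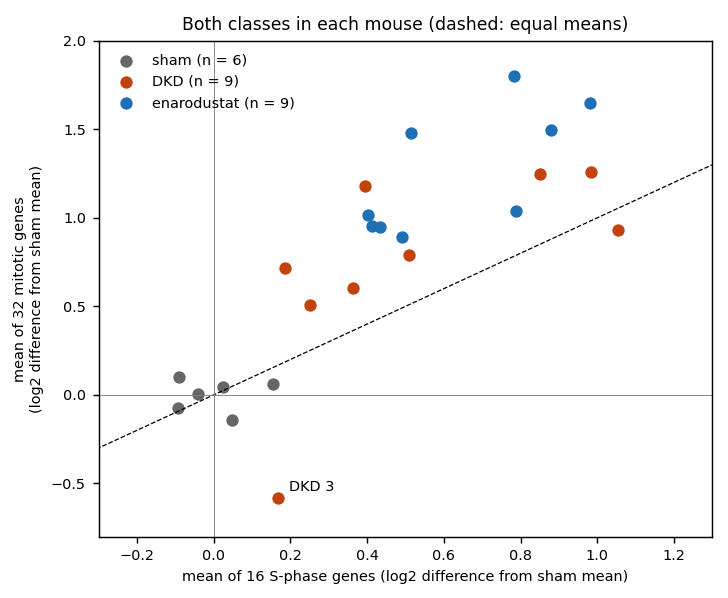
Each point is 1 mouse, with the mean of 16 S-phase genes (horizontal) and of 32 mitotic genes (vertical) as log2 differences from the sham mean; the dashed line marks equal means. The 9 enarodustat points lie above the line, and DKD 3 lies apart at 0.17 and −0.58.

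The spread between mice was described by the SD over arrays. It was larger in DKD than in sham in 31 of 32 mitotic and 15 of 16 S-phase genes, beside 77.5% of all genes tested, and larger with enarodustat than in sham in 25 of 32 (78.1%) and 13 of 16 (81.3%), beside 71.2% of all. The median SD of mitotic genes was 0.25 in sham, 0.71 in DKD and 0.46 with enarodustat, and that of S-phase genes 0.15, 0.47 and 0.31. Over all genes tested it was 0.20, 0.31 and 0.28. Without DKD 3, the median SD in DKD was 0.40 for mitotic genes, 0.44 for S-phase genes and 0.31 over all genes tested, and it exceeded that of sham in 28 of 32 mitotic genes, 15 of 16 S-phase genes and 76.6% of all. Within the groups, 8 relations of Mki67 to other genes were tested over 9 arrays each by exact permutation, two-sided. In DKD, Mki67 correlated with Top2a at r = 0.89 (exact p = 0.0016, adjusted over the 8 relations 0.0128) and rho = 0.78 (exact p = 0.0172, adjusted 0.138). Without DKD 3 and DKD 5, the 2 arrays farthest from the Mki67 median, r was 0.58 and did not pass (exact p = 0.164). Leaving them out narrows the range of Mki67 and keeps only 7 arrays, so it cannot tell whether the relation rests on those 2. With slide means removed, r was 0.84 (adjusted exact p = 0.13).

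The other relations did not pass. In DKD, r was 0.76 with Rrm2 (exact p = 0.0181, adjusted 0.0724; rho 0.58, exact p = 0.108, adjusted 0.216), 0.08 with Mcm2 (exact p = 0.847, adjusted 0.937; rho 0.28, exact p = 0.463, adjusted 0.617) and −0.29 with Cdkn1a (exact p = 0.472, adjusted 0.732; rho −0.32, exact p = 0.41, adjusted 0.617). With enarodustat, r was 0.66 with Top2a (exact p = 0.033, adjusted 0.0881; rho 0.72, exact p = 0.0369, adjusted 0.147) and 0.52 with Rrm2 (exact p = 0.145, adjusted 0.289; rho 0.63, exact p = 0.076, adjusted 0.203). It was 0.23 with Mcm2 (exact p = 0.549, adjusted 0.732; rho 0.22, exact p = 0.581, adjusted 0.644) and −0.03 with Cdkn1a (exact p = 0.937, adjusted 0.937; rho 0.18, exact p = 0.644, adjusted 0.644). Without the 2 farthest arrays, r became 0.46, 0.70 and −0.37 for Rrm2, Mcm2 and Cdkn1a in DKD, and 0.92, 0.75, 0.16 and 0.50 for Top2a, Rrm2, Mcm2 and Cdkn1a with enarodustat. With 9 arrays a group, a p that misses the threshold does not show that these genes vary apart from Mki67.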

How the data were processed

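Kidney RNA of 24 mice (sham 6, DKD 9, enarodustat 9; groups from the labels) was measured on 1-colour Agilent arrays. Per the file headers, spot intensity was background subtracted and detrended by Agilent Feature Extraction 12.1.1.1; the submitters' processing notes name 11.5.1.1 and limma, with no role. The authors' deposited series values are log2; normexp (offset 50) on median signals with quantile normalization gave all but 299 of 753816 of them within 0.05. Scale and centring of these were found in this way and not stated by the authors; column medians were 7.543 to 7.559.

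Here, control spots were left out, spots of a probe averaged, and 20 values with an outlier mark dropped in tested genes (0 in the 48 members). Accessions of probes were matched to a RefSeq table (GRCm38.p6), which named 32994 of 56605 probes. Log2 processed signals minus the 75th percentile of the array entered 1 limma fit (R 4.3.3, limma 3.58.1) with group as the only term. Tests are two-sided. "At least" folds stand where no array of the dim group had the probe above background: the bright group's mean was divided by that of floors, each the larger of the probe's signal and the dimmest signal on that array still above background. Genes given such a fold met the filter of 6 arrays through the other groups alone, so their tests depend on that filter. Array number limits the precision. The fit was tested on simulated data.

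Named genes were, per comparison and class, up to 5 risers or fallers with the largest change, a fixed set (Mki67, Top2a, Cdk1, Ccnb1, Pcna, Rrm2, Mcm2, Mcm5, Ccne1, E2f1, Cdkn1a, Cdkn1b and Cdkn1c), tested genes above background on no array of a group, and up to 3 per further list; other members are named to account for all 48. The members and lists were chosen with earlier results of these data known. Replicate numbers were not taken as pairs. Deviations from group means of same-numbered arrays correlated at a median of 0.097, over 0.1 in 10 of 21 pairs. The median was −0.024 for arrays of other numbers, over 0.1 in 49 of 168 pairs, and 0.189 for arrays on 1 slide. Same-numbered DKD and enarodustat arrays shared a slide, so number and slide cannot be told apart in them.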

Additional observations from a re-analysis of the deposited data

Results flagged for a closer look

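Within the 3 groups, the levels of the 47 tested members and the mean of each class were searched for an array far from the rest of its group by Dixon's test, which flags about 1 in 20 groups by chance; of 147 groups, 19 were marked, 11 of them for DKD 3 as the lowest array. In DKD 3 the level of Ccna2 was −3.89 (next lowest −2.25), of Bub1b −7.67 (−6.06), of Cenpf −5.15 (−3.22), of Plk1 −2.58 (−1.61), of Foxm1 −4.32 (−3.02) and of Kif20a −3.69 (−2.24). In the same array Nusap1 was at −4.17 (−3.06), Tpx2 at −5.48 (−3.88), Prc1 at −3.48 (−2.03) and Anln at −4.04 (−2.61), and the mean of the mitotic genes was −0.58 (0.51).

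In enarodustat 5, Mki67 was low at −1.06 (−0.26) and Cenpf at −3.77 (−2.44), and in enarodustat 2, Cdt1 was high at 1.41 (0.91). Among sham arrays, Aurka (−1.83, next −2.27) and Mcm5 (−1.38, next −1.68) were high in sham 5, Aurkb (−4.79, next −4.31) and Mcm3 (−0.27, next −0.13) were low in sham 4, and Mad2l1 was low in sham 3 (−1.62, next −1.46). No cause was tested for any of these.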

How the results depend on the processing

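The number of members called in DKD against sham was 21, and 11 with median scaling, 15 with normexp and quantile normalization, 18 with the deposited values (which cover 42 members, 27 of them mitotic, and 15112 genes tested), 29 with slide row as a term and 14 with the replicate block (the replicate number as a block); it was 0 within each of slides 1, 2 and 3. Enarodustat against DKD gave 0, and 0 with the block; enarodustat against sham gave 39, and 36 with the block and 40 with the slide as a random block, and 0, 3 and 0 within slides 1, 2 and 3. The numbers were not taken as pairs in the main fit. Calls over all genes moved as well. In DKD against sham they were 2058 of 17736 in the main fit, 2063 of 15112 with the deposited values and 2315 with the slide as a random block. In enarodustat against sham they were 2748 in the main fit and 3120 with the slide as a random block. For the other settings of this paragraph no count over all genes is given beside that of the members. Leaving out 1 array at a time gave 13 to 34, 0 to 1 and 36 to 40 called members in these comparisons, and median changes of 0.41 to 0.57, 0.04 to 0.18 and 0.53 to 0.61 in S phase and of 0.68 to 1.01, 0.36 to 0.61 and 1.28 to 1.40 in mitosis. The mitotic median of enarodustat minus sham, 1.36, was 0.48 with normexp and quantile normalization, 0.50 with normexp and the 75th percentile (chosen after seeing the data), 0.59 with the deposited values (27 of 32 genes) and 1.93 with slide row. The slide row term is estimated from the DKD mice alone, with DKD 3 among those in row 2. Within slide 3 the enarodustat minus DKD medians were −0.12 (S phase) and 0.12 (mitosis). The causes were not tested.

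Other changes reversed. DKD minus sham: Cdc6 −0.0011 with normexp and quantile normalization and with the deposited values, −0.065 within slide 3 and −0.15 with the replicate block; Mcm6 −0.022 with median scaling and −0.0023 within slide 3; Cdkn1b −6e-04 and −0.030 in the same settings. Within slide 2, Cenpe was 0.35, Ect2 0.006, Ndc80 −0.54 and Kif11 −0.051, and with the block Ect2 was 0.0096. Enarodustat minus sham: Cdc6 −0.0702 with normexp and quantile normalization, −0.0707 with the deposited values, −0.0725 with quantile normalization, −0.0487 with normexp and the 75th percentile, −0.11 with median scaling, −0.0948 with slide row, −0.15 within slide 3 and −0.23 with the block; Cenpe −0.24 within slide 3. Enarodustat minus DKD: Kif23 −0.0148 and Bub1b −0.0042 with normexp and the 75th percentile; Cdt1 −0.0375, Mcm4 −0.0355, Rrm1 −0.0183 and Mcm2 −0.0092 with median scaling; Pcna −0.043 and Tyms −0.24 with slide row; Cdc6 0.0607 over all probes; Pcna −0.0162 within slide 1; Cdkn1c 0.0791, Kif23 −0.17 and Bub1b −0.0364 within slide 2. Within slide 3 they were Pcna −0.16, Mcm7 −0.19, Tk1 −0.12, Rrm2 −0.0547, Cdt1 −0.39, Mcm3 −0.27, Mcm4 −0.27, Rrm1 −0.20, Hmmr −0.016, Mcm2 −0.25, Mcm5 −0.0569, Mad2l1 −0.18, Racgap1 −0.0301, E2f1 −0.0211, Kif20a −0.14, Ndc80 −0.10, Cdk1 −0.16, Bub1b −0.0471 and Ttk −0.15.

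Without 1 array, enarodustat minus DKD ran from −0.0591 to 0.0638 (Mcm4), −0.0902 to 0.0783 (Cdt1), −0.0445 to 0.16 (Tk1), −0.0399 to 0.10 (Mcm2), −0.0401 to 0.0765 (Rrm1), −0.18 to 0.0664 (Cdc6) and −0.0264 to 0.23 (Ccne1). Enarodustat minus sham of Cdc6 ran from −0.14 to 0.21, and DKD minus sham of Cdc6 from −0.0666 to 0.28, of Mcm6 from −0.0076 to 0.14 and of Ect2 from −0.10 to 0.0048. The correlation of Mki67 with Top2a in DKD was 0.84 with slide means removed and 0.58 without the 2 farthest arrays. That of Mki67 with Cdkn1a under enarodustat, −0.03, was 0.0117 with slide means removed, 0.051 with normexp and 0.50 without the 2 farthest. Normexp on mean signals was not run. Signal near background limits Bub1, Bub1b, Ttk, Kif11 and Ccne2.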

Other observations

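Probes of 1 gene did not always give the same change. The brightest probe of Hmmr, a hyaluronan-binding spindle protein, differed by 0.62 between DKD and sham, while its 2 dimmer probes, above background on 20 and 23 arrays, differed by 1.25 and 1.22. The brightest probe of Cdc6 differed by 0.11 and its second by 1.57, and the probes of Cdc20 by 1.26 and 0.74. The 3 probes of Mcm3 differed by 0.84, 0.84 and 0.73, and the 2 of Mcm6 by 0.08 and −0.07. Why the probes differ was not tested.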
